A study of Mus musculus with 5 samples.

Results

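Expression of 8 genes for methyl-CpG binding proteins and their closest relatives was examined in the cerebral cortex of Uhrf1 cKO embryos. They were Mbd1, Mbd2, Mbd3, Mbd5, Mbd6, Zbtb33, Zbtb4 and Zbtb38, taken by name from an expression table of 23997 gene names. All 8 were in the table, and all 8 were among the 14693 genes tested. The 2 cKO libraries, MG18 and MG19, came from whole cortices of C57BL/6 embryos at embryonic day 16 labelled Uhrf1 -/-, and the 3 control libraries, MG15, MG16 and MG17, from embryos of the same stage labelled Uhrf1 +/-. Both groups carried Emx1-driven Cre, so that the controls had also lost 1 copy of Uhrf1, and the cKO lost the floxed exon in the dorsal telencephalon. Interneurons, vessels, microglia and other cells from outside the Emx1 lineage kept the gene. Levels are given as FPKM, a unit that divides the fragments of a gene by its transcript length and by the size of the library, so that genes of different length can be compared.

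Methylated CpG is read by proteins of distinct families. Proteins of the MBD family carry a methyl-CpG binding domain, which in Mbd1 and Mbd2 recognises methylated CpG, while mammalian Mbd3, Mbd5 and Mbd6 carry the domain but are not known to prefer methylated DNA. Zbtb33 (Kaiso), Zbtb4 and Zbtb38 form a second family, in which zinc fingers contact methylated DNA and a BTB domain mediates protein contacts, often with co-repressors. Uhrf1 binds hemimethylated CpG behind the replication fork and recruits the maintenance methyltransferase Dnmt1, a step needed to keep CpG methylation through cell division.

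Of the BTB family, Zbtb33 and Zbtb4 have a RefSeq start at the start of the annotated gene, and the 250 bases before it are shown to compare their CpG content, with each CpG in capitals. The sequences are from RefSeq on GRCm38.p6 and run 5′ to 3′ on the strand of the gene, at chrX:38189543-38189792 for Zbtb33 and at chr11:69765662-69765911 for Zbtb4, both on the plus strand.
Zbtb33: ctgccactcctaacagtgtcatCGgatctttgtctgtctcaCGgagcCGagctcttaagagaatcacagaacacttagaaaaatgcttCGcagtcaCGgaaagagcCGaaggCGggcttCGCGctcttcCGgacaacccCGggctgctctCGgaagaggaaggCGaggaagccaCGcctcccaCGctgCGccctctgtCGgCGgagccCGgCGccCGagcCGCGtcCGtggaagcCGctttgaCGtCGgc
Zbtb4: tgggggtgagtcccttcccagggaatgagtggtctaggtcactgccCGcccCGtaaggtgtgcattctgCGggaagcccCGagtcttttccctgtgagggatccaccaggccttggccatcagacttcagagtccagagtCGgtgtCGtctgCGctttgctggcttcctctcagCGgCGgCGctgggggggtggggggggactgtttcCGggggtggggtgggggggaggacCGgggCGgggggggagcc
The Zbtb33 stretch held 27 CpG (percentile 91.9) and the Zbtb4 stretch 13 (percentile 69.6), against a median of 6 CpG over 32817 such windows in the RefSeq promoter table. The 3 RefSeq starts of Zbtb38 lie inside the annotated span of the gene, and the windows before them held 6, 31 and 23 CpG and overlapped annotated exons, so none is printed. Of the 8 genes, 6 were matched in the promoter table, with 10 windows. CGCG, a core that Kaiso binds when methylated, was found in 6 of these 10 windows, against 33.8% of all windows. The 6 belong to Mbd3, Mbd6, Zbtb33 and Zbtb38, and the windows of Mbd6 overlap each other. They held 14 to 32 CpG, and the share over all windows is not matched for CpG content. TCCTGCNA, the unmethylated Kaiso motif, searched on both strands, was found in 0 of the 10 windows, against 4.03% of all windows. Such matches describe letters only, and no methylation value was analysed here.

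Uhrf1 was measured at 2.75 and 2.61 FPKM in cKO, against 7.24, 13.2 and 13.0 FPKM in control, and fell by 1.97 on the log2 scale (SE 0.28, adjusted p = 0.00761, limma). With MG18 or MG19 left out the adjusted p of Uhrf1 was 0.275 or 0.312. MG18, MG15 and MG17 held Y-linked transcripts, while MG19 and MG16 did not, so both groups mixed male and female embryos, and MG18 also held Xist at 3.84 FPKM, against 0.0252 and 0.0812 FPKM in MG15 and MG17. Small RNAs took between 54.6% and 88.4% of the summed FPKM of a library and were left out of the tests. The files give no counts, and steps between low values gave only approximate depths, about 8100000 and 9900000 fragments in cKO, against about 36000000, 16000000 and 10000000 fragments in control. The libraries are called biological replicates by the study, and library correlations across genes lay between 0.958 and 0.984.

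None of the 8 genes passed an adjusted p under 0.05 (limma, Benjamini-Hochberg over all genes tested), a threshold passed by 1.25% of all genes, and none passed an unadjusted p under 0.05 together with a 2-fold difference, which 4.04% of all genes did. At an unadjusted p under 0.05 alone, 1 of the 8, Zbtb38, was higher in cKO and 0 were lower, against 6.36% of all genes higher and 5.18% lower. Both cKO libraries lay above all control libraries for 2 of the 8 genes, Mbd2 and Zbtb38, against 14.5% of all genes, and below them for 1, Zbtb33, against 16.3% of all genes. The log2 difference, cKO minus control, was above 0 for 7 of the 8 genes and below 0 for Zbtb33, with a median of 0.22, while over all genes tested the median was -0.02 and the upper quartile was 0.22. The 95% confidence interval of the difference lay within 2-fold in either direction for 7 of the 8 genes, all but Mbd6, and did so for 70.6% of all genes. In whole tissue, fewer cells of a type and less RNA per cell cannot be told apart, so each value below is a level in the dissected cortex as a whole.

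**Figure D1:**
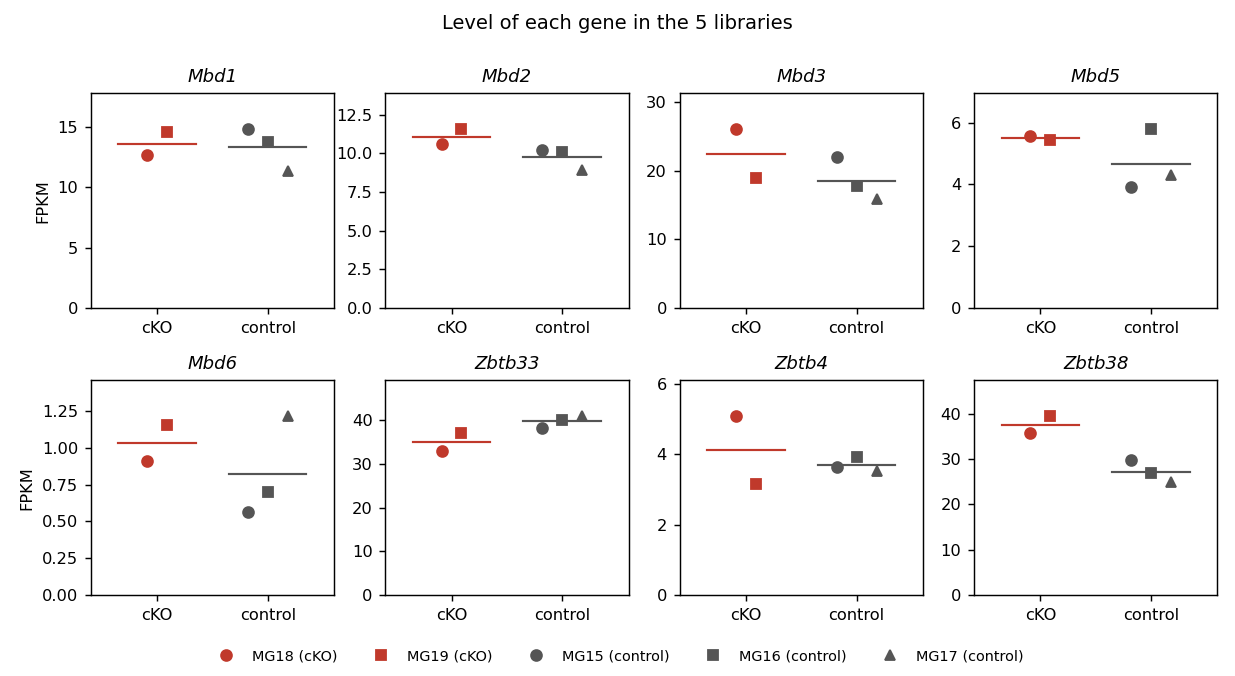
FPKM of each of the 8 genes (y axis, from 0, own scale in each panel) in the 2 cKO and 3 control libraries, with a horizontal line at each group mean. Zbtb38 and Mbd2 are higher in both cKO libraries than in every control library, Zbtb33 is lower in both, and the groups overlap for the other 5 genes.

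Zbtb38 encodes the BTB zinc finger protein also known as CIBZ, which binds methylated CpG and the co-repressor CtBP. It was measured at 35.7 and 39.4 FPKM in cKO, against 29.8, 27.0 and 24.9 FPKM in control. Both cKO libraries were above all control libraries, with a cKO mean at 138.0% of that in control (37.6 ± 2.65 FPKM in cKO, n = 2, and 27.2 ± 2.48 FPKM in control, n = 3, mean ± SD). The difference was 0.47 on the log2 scale (SE 0.16, 95% interval 0.11 to 0.82), or 1.38-fold (1.08 to 1.76), with an unadjusted p of 0.0152 and an adjusted p of 0.298 (limma). A two-sided exact permutation test over the 5 libraries gave p = 0.1, which is as small as this design can give. Without MG19 the difference was 0.39 with an unadjusted limma p of 0.0848. Zbtb38 spans 96682770 to 96752831 on the minus strand of chromosome 9 (GRCm38, ENSMUSG00000040433.16), and a noncoding antisense gene, A930006L05Rik, covers 5622 bp of that span and was not among the names in the table.

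Zbtb33 encodes Kaiso, the founding member of the BTB family of methyl-CpG readers, which recruits the NCoR co-repressor and binds p120 catenin. It was measured at 33.0 and 37.1 FPKM in cKO, against 38.2, 40.0 and 40.9 FPKM in control. Both cKO libraries were below all control libraries, MG19 by little. The difference was -0.18 on the log2 scale (SE 0.15, 95% interval -0.51 to 0.15), or 0.882-fold (0.7 to 1.11), with an adjusted p of 0.657 (limma, unadjusted p = 0.25; exact permutation p = 0.1). Zbtb33 lies on the X chromosome from 38189793 to 38197046 on the plus strand (ENSMUSG00000048047.3). Among libraries with Y-linked transcripts it was at 33.0 FPKM in cKO, against 38.2 and 40.9 FPKM in control, and among those without it was at 37.1 FPKM in cKO, against 40.0 FPKM in control. With sex as a covariate the difference was -0.19. Its last 474 bp overlap Tmem255a, a gene on the opposite strand, which was measured at 0.965 and 0.363 FPKM in cKO, against 0.682, 1.33 and 0.933 FPKM in control (log2 difference -0.58, adjusted p = 0.635, limma).

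The means of Zbtb38 and Zbtb33 stood in opposite order in the 2 groups. The ratio of Zbtb38 to Zbtb33 was 1.08 and 1.06 in cKO, against 0.78, 0.674 and 0.609 in control, each taken within 1 library. All cKO ratios were above 1 and all control ratios below it (exact permutation p = 0.1, the smallest possible). The ratio was chosen after the values were seen, so its p is a description. Of the summed FPKM of the 8 genes, 129.5 and 131.3 FPKM in cKO, against 123.1, 119.0 and 110.9 FPKM in control, Zbtb38 took 27.6% and 30.0% in cKO, against 24.2%, 22.7% and 22.4% in control. Zbtb33 took 25.5% and 28.2% in cKO, against 31.0%, 33.6% and 36.8% in control.

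**Figure D2:**
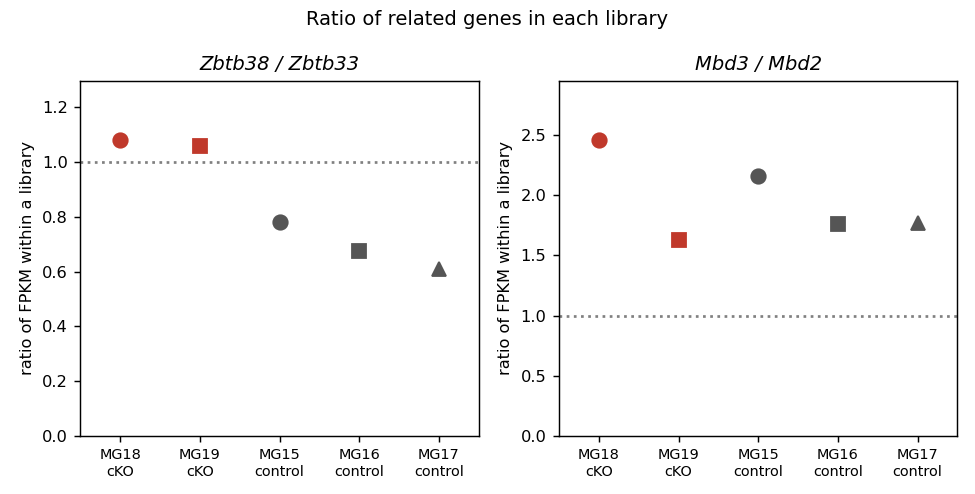
Ratio of FPKM within each of the 5 libraries (y axis, from 0), for Zbtb38 over Zbtb33 and for Mbd3 over Mbd2, with a dotted line at 1. The Zbtb38 to Zbtb33 ratio is 1.08 and 1.06 in cKO and at most 0.78 in control, while the Mbd3 to Mbd2 ratios of the groups overlap.

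Zbtb4, the remaining BTB member, had low levels, at 5.08 and 3.16 FPKM in cKO, against 3.64, 3.93 and 3.54 FPKM in control. The cKO libraries were the highest and the lowest of the 5, so the groups overlapped. The difference was 0.11 (SE 0.25, 95% interval -0.45 to 0.68, adjusted p = 0.881, limma), and it turned to -0.22 without MG18 and to -0.02 with a correction for transcript length. Zbtb4 lies on chromosome 11 from 69765912 to 69784023, plus strand (ENSMUSG00000018750.14).

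Mbd2 and Mbd3 are alternative subunits of the NuRD complex, which joins histone deacetylase and nucleosome remodelling. Mbd2, the subunit that binds methylated CpG, was measured at 10.6 and 11.6 FPKM in cKO, against 10.2, 10.1 and 8.93 FPKM in control. The groups did not overlap, but MG18 and MG15 were close, and the difference was 0.18 (SE 0.17, 95% interval -0.20 to 0.57) with an adjusted p of 0.698 (limma, unadjusted p = 0.313; exact permutation p = 0.1). Mbd3, the subunit with no preference for methylated CpG, was measured at 26.0 and 18.9 FPKM in cKO, against 21.9, 17.8 and 15.8 FPKM in control. MG18 was the highest of the 5 libraries and MG19 lay among the controls. The difference was 0.27 (SE 0.20, 95% interval -0.19 to 0.73, adjusted p = 0.631, limma). The ratio of Mbd3 to Mbd2 was 2.46 and 1.63 in cKO, against 2.16, 1.76 and 1.77 in control, and the 2 cKO libraries held the highest and the lowest ratio. Mbd2 lies on chromosome 18 from 70568189 to 70626131, plus strand (ENSMUSG00000024513.16), and Mbd3 on chromosome 10 from 80392539 to 80399550, minus strand (ENSMUSG00000035478.14).

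Mbd1 is a transcriptional repressor that binds methylated CpG and, in human cells, brings the H3K9 methyltransferase SETDB1 and its cofactor ATF7IP to the chromatin assembly factor CAF-1. It was measured at 12.6 and 14.6 FPKM in cKO, against 14.8, 13.7 and 11.4 FPKM in control. The cKO libraries lay inside the control range. The difference was 0.04 (SE 0.18, 95% interval -0.37 to 0.45), or 1.03-fold (0.771 to 1.36), with an adjusted p of 0.951 (limma), so that a 2-fold change in either direction was outside the interval. Its sign turned with MG17 or MG19 left out, to -0.07 in either case. Mbd1 lies on chromosome 18 from 74267605 to 74282732, plus strand (ENSMUSG00000024561.10).

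Mbd5 and Mbd6 associate with the PR-DUB deubiquitinase, which removes ubiquitin from histone H2A, and human MBD5 is a gene of intellectual disability. Mbd5 was measured at 5.57 and 5.45 FPKM in cKO, against 3.90, 5.79 and 4.30 FPKM in control. The cKO libraries were close together, below MG16 and above MG15 and MG17. The difference was 0.26 (SE 0.23, 95% interval -0.26 to 0.77, adjusted p = 0.683, limma). Mbd6 had the lowest level of the 8 genes, at 0.907 and 1.15 FPKM in cKO, against 0.562, 0.698 and 1.22 FPKM in control. The highest library was the control MG17, and the groups overlapped. The Mbd6 difference was 0.34 (SE 0.38, 95% interval -0.50 to 1.19, adjusted p = 0.747, limma), with about 31 to 88 fragments a library. Its interval reached past 2-fold. The ratio of Mbd5 to Mbd6 was 6.14 and 4.72 in cKO, against 6.95, 8.29 and 3.54 in control.

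Mbd5 lies on chromosome 2 from 48949508 to 49325405, plus strand (ENSMUSG00000036792.12), and overlaps Orc4, an origin recognition complex gene on the opposite strand, by 770 bp. Orc4 was measured at 18.5 and 24.9 FPKM in cKO, against 20.2, 23.8 and 26.4 FPKM in control (log2 difference -0.12, adjusted p = 0.829, limma). Mbd6 lies on chromosome 10 from 127281956 to 127289018, minus strand (ENSMUSG00000025409.14), and overlaps the noncoding gene Gm20492 by 505 bp. The library kit keeps strand, but whether the authors' quantification used it is not given in the sources used here, so reads of opposite-strand partners may not be told apart. Of the 16 nearest genes on either side of the members, 13 were tested and 1, Uqcr11 beside Mbd3, had an unadjusted p under 0.05. Uqcr11, a respiratory chain subunit, was measured at 44.5 and 42.0 FPKM in cKO, against 62.6, 47.9 and 67.9 FPKM in control (log2 difference -0.44, unadjusted p = 0.0357, adjusted p = 0.399, limma), and its unadjusted p was between 0.0722 and 0.170 with MG15, MG17, MG18 or MG19 left out, 0.0700 under quantile normalization, 0.107 on rescaling without small RNAs and 0.0777 without the trend.

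**Figure D3:**
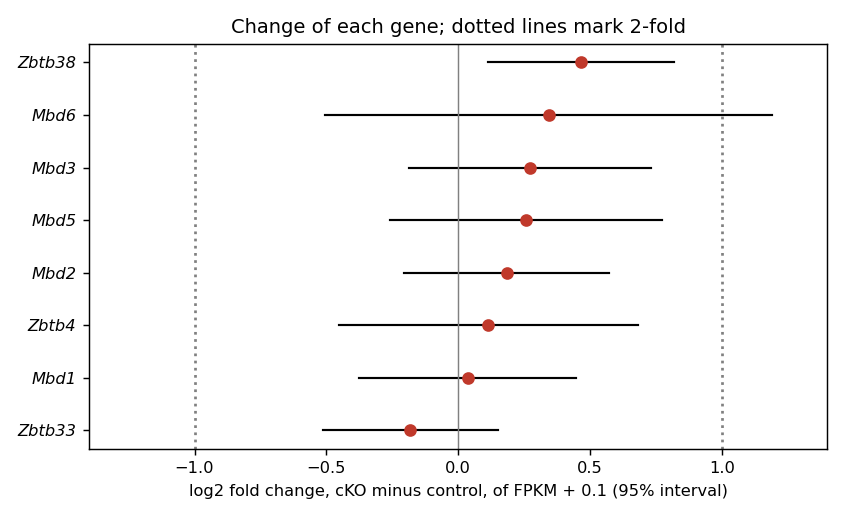
Log2 difference of FPKM + 0.1, cKO minus control, for each of the 8 genes (points), with 95% confidence intervals from limma (lines) and dotted lines at a 2-fold difference. Only the Zbtb38 interval, 0.11 to 0.82, lies off 0, and only the Mbd6 interval, -0.50 to 1.19, reaches past 2-fold.

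In levels per length, the order in cKO was Zbtb38, Zbtb33, Mbd3, Mbd1, Mbd2, Mbd5, Zbtb4 and Mbd6, with means from 37.6 to 1.03 FPKM. Only Zbtb38 and Zbtb33 overlapped as neighbours in this order. In control the order was Zbtb33, Zbtb38, Mbd3, Mbd1, Mbd2, Mbd5, Zbtb4 and Mbd6, with means from 39.7 to 0.825 FPKM. Only Mbd5 and Zbtb4 overlapped as neighbours there. Against all genes tested, the mean level of Zbtb33 stood at percentile 84.7, that of Zbtb38 at 81.0, Mbd3 at 70.7, Mbd1 at 59.6, Mbd2 at 53.1, Mbd5 at 38.0, Zbtb4 at 33.7 and Mbd6 at 16.9.

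The genes whose pattern over the 5 libraries was most like that of Zbtb38, by the root mean square difference of gene-centred log2 values, included Alad at 0.0229 and Mfsd7c at 0.0471. Alad, an enzyme of haem synthesis, was measured at 13.1 and 14.8 FPKM in cKO, against 11.0, 9.61 and 9.01 FPKM in control. Like Zbtb38, it was highest in MG19 and lowest in MG17, a likeness that follows from how it was picked among all genes tested.

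The protein partners of the members were described by lists, as counts and medians beside the 6.36% of all genes higher and 5.18% lower at an unadjusted p under 0.05. Of 13 NuRD subunits, 0 were higher and 0 lower, and the median log2 difference was -0.06. The most abundant were Hdac2, a histone deacetylase, at 223 and 269 FPKM in cKO, against 275, 286 and 328 FPKM in control (difference -0.27, adjusted p = 0.594, limma), and Chd3, a nucleosome remodeller, at 94.0 and 107 FPKM in cKO, against 133, 129 and 72.1 FPKM in control. Chd3 was split within the controls, MG17 being the lowest of the 5 libraries, and without MG17 its difference was -0.39 (unadjusted p = 0.0249, adjusted p = 0.327, limma), against -0.10 with all libraries. The signs of Chd3 and of the NuRD median turned under quantile normalization, to 0.02 for both. The NuRD median also turned without MG15 or MG16, to 0.001 or 0.02, and 1 subunit, Chd3, was lower without MG17.

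Of the 5 Mbd1 partners, 0 were higher and 0 lower, with a median of -0.01, which turned to 0.02 under quantile normalization and to 0.03 without MG18. Cbx5, which encodes the heterochromatin protein HP1 alpha, was at 118 and 115 FPKM in cKO, against 119, 121 and 112 FPKM in control. Setdb1 was at 22.7 and 27.2 FPKM in cKO, against 27.8, 27.4 and 24.5 FPKM in control (difference -0.09, adjusted p = 0.841, limma). The cKO and control libraries overlapped for both genes.

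Of the 9 PR-DUB subunits, 2 were higher and 0 lower, with a median of 0.14. Asxl3, an Asxl scaffold subunit, was at 5.50 and 6.37 FPKM in cKO, against 3.27, 3.67 and 4.46 FPKM in control, with a difference of 0.64 (unadjusted p = 0.0180, adjusted p = 0.320, limma). Hcfc1, host cell factor, was at 17.0 and 17.1 FPKM in cKO, against 11.6, 14.6 and 12.3 FPKM in control, with a difference of 0.42 (unadjusted p = 0.0375, adjusted p = 0.402, limma). Both cKO libraries were above all control libraries for either gene. The unadjusted p of Asxl3 was 0.0678 without MG15 and 0.113 without MG19, and that of Hcfc1 was 0.127 without MG15, 0.0517 without MG17, 0.109 without MG18 and 0.112 without MG19. The count of subunits higher was 0 without MG15 or MG19 and 1 without MG17 or MG18. With a correction for transcript length 0 were higher and 1 was lower, Ogt, the O-GlcNAc transferase, which had 81.4 and 91.1 FPKM in cKO, against 92.8, 109 and 112 FPKM in control.

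Of 9 co-repressors and partners of the BTB zinc finger proteins, 1 was higher and 0 lower, with a median of 0.01, which turned to -0.06 with a correction for transcript length and to -0.07 or -0.01 without MG17 or MG19. With a control library left out, the count higher was 0 without MG15 or MG17 and 1 without MG16. It was also 0 under quantile normalization and with the correction for transcript length. The count moved without MG18 and without MG19 as well, where 1 cKO library was left. Ctbp1, the partner of Zbtb38, was at 145 and 134 FPKM in cKO, against 150, 142 and 137 FPKM in control (difference -0.04, which turned to 0.10 under quantile normalization). The groups overlapped for Ctbp1. Hdac3, the deacetylase of the NCoR complex, was at 51.0 and 46.2 FPKM in cKO, against 55.5, 57.5 and 54.3 FPKM in control (difference -0.20, adjusted p = 0.624, limma), with both cKO libraries below all controls.

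**Figure D4:**
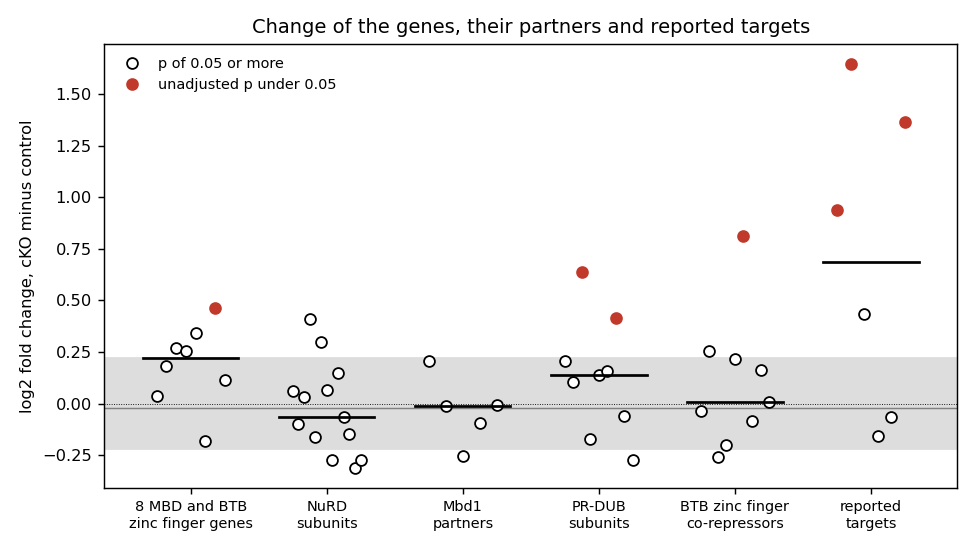
Log2 difference of FPKM + 0.1, cKO minus control, of each tested gene (points, filled where the unadjusted limma p is under 0.05) in the 8 members, their partner lists and reported targets, with a bar at each list's median. The grey line and band are the median, -0.02, and the quartiles, -0.22 and 0.22, of all genes tested, and the median bar of the 8 members is at 0.22.

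Genes reported elsewhere as direct targets of these proteins numbered 12 in the list, of which 6 were high enough to be tested. Of these 6, 3 were higher and 0 lower at an unadjusted p under 0.05, against 6.36% and 5.18% of all genes. The list was drawn up with earlier results of these data known, so the count is a description. The median of the 6 was 0.69, against -0.02 over all genes tested. That median was 0.36 without MG18, 1.08 without MG19 and 0.29 with a pseudocount of 1, and the count higher was 2 without MG15, MG17 or MG18. Ccnd1, a G1 cyclin and a reported Kaiso target, was at 24.7 and 21.8 FPKM in cKO, against 11.7, 10.7 and 14.1 FPKM in control. Both cKO libraries were well above the controls, and Ccnd1 rose by 0.94 on the log2 scale (SE 0.18, adjusted p = 0.0416, limma). That call was lost without MG15, MG16, MG18 or MG19, at adjusted p = 0.149, 0.165, 0.419 and 0.318, and it was also lost with a pseudocount of 0.01 (0.0602), with no filter (0.0699), under quantile normalization (0.0516) and without the trend (0.129). Cdkn1a, the cell cycle inhibitor p21 and in human cells a reported ZBTB4 target, was at 4.32 and 1.18 FPKM in cKO, against 0.631, 0.422 and 1.05 FPKM in control.

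MG18 stood far above the other 4 libraries for Cdkn1a. Its difference was 1.64 (unadjusted p = 0.0124, adjusted p = 0.276, limma), and 0.75 without MG18 (unadjusted p = 0.209). Rapsn, a synaptic scaffold of muscle and in mouse muscle cells a reported Kaiso target, was at 0.236 and 0.369 FPKM in cKO, against 0.0471, 0.147 and 0 FPKM in control (difference 1.37, unadjusted p = 0.0332, adjusted p = 0.391, limma). These levels amount to few fragments, and Rapsn reached the mean of 0.1 FPKM needed for testing only through the cKO libraries. With a mean of at least 1 FPKM required it was not tested, and 2 of the 5 targets tested were higher. The unadjusted limma p of Rapsn was 0.0738 without MG15, 0.0867 without MG17, 0.0566 with a pseudocount of 0.01 and 0.0733 under quantile normalization. It was 0.0522 with sex as a covariate and the correction for transcript length together. Without MG18 or MG19 the Rapsn difference was 1.608 or 1.125. These fits leave 1 cKO library, so no call is read from them. Of the 6 genes not tested, Fgf2, Il4 and Mmp7 were listed at 0 in all libraries. Whether the level of any member bears on these genes was not tested.

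The summed levels of several cell type marker lists did not overlap between the groups. Each list is given with its log2 difference for the gene of smallest p. The counts of all marker lists stand beside 6.36% of all genes higher and 5.18% lower at an unadjusted p under 0.05 (limma). Of 14 markers of the ventral telencephalon and interneurons, 6 were higher and 1 lower at an unadjusted p under 0.05, with Dlx1 at 0.65, and their summed level was 122.2 to 189.6 FPKM in cKO, against 105.1 to 113.5 FPKM in control. Of 8 markers of astrocytes and the oligodendrocyte lineage, 4 were higher and 0 lower. Their sums were 32.9 to 48.8 FPKM in cKO, against 18.7 to 31.5 FPKM in control. The 4 were Gfap at 2.37 and, of the oligodendrocyte lineage, Olig1, Olig2 and Pdgfra. The groups overlapped for Aqp4 (-0.37), Aldh1l1 (0.10) and S100b (0.36). Gfap was low, at 2.91 and 2.52 FPKM in cKO, against 0.833, 0.424 and 0.224 FPKM in control. Of all markers only Gfap passed an adjusted p under 0.05 (0.0353, limma). That call was lost with sex as a covariate (0.0597), with a pseudocount of 0.01 (0.0753) and with no filter (0.0891). It was also lost under quantile normalization (0.0624), without the trend (0.0860), without MG16 (0.1015) and without MG17 (0.0690). Without MG18 or MG19, which leaves 1 cKO library, the Gfap difference was 2.274 or 2.475. The study saw no GFAP protein at this stage. It reported a mild rise of Gfap in RNA sequencing of the ventricular zone at this stage. By RT-qPCR it detected no Gfap transcript, and it proposes that the activation was very low. Of 8 microglial markers, 3 were higher and 0 lower, with Cx3cr1 at 0.87, with sums of 43.2 to 47.8 FPKM in cKO, against 22.6 to 40.8 FPKM in control. The cKO sums were thus above all control sums for these lists, and likewise for 5 markers of meninges, of which 2 were higher and 0 lower, with Col1a1 at 1.64, at 8.69 to 10.3 FPKM in cKO, against 3.25 to 4.67 FPKM in control.

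Of 12 markers of apical and intermediate progenitors, 0 were higher and 5 lower, with Eomes at -0.79, and their summed level was 1271 to 1517 FPKM in cKO, against 1653 to 2331 FPKM in control. Of 8 dorsal cortex markers, 0 were higher and 1 lower, Emx1 at -0.58, with sums of 873.6 to 937.2 FPKM in cKO, against 1049 to 1281 FPKM in control. Of 6 erythroid markers, 1 was higher and 2 lower, with Hbb-bs at -0.74, with sums of 442.4 to 504.9 FPKM in cKO, against 582.1 to 917.8 FPKM in control, and here Hba-a1 and Hba-a2 are near-identical copies whose reads may be split between them. Sums overlapped between groups for 9 markers of postmitotic neurons, of which 0 were higher and 2 lower, with Nefl at -1.63, at 2625 to 2921 FPKM in cKO, against 2832 to 3283 FPKM in control. They also overlapped for 8 markers of endothelium and pericytes, of which 1, Kdr at 0.61, was higher and 0 lower, at 123.1 to 126.0 FPKM in cKO, against 107.0 to 145.3 FPKM in control. Without MG18 the unadjusted p was 0.0810 for Emx1, 0.0923 for Dlx1, 0.0727 for Cx3cr1 and 0.0800 for Hbb-bs, and without MG19 it was 0.363 for Kdr and 0.426 for Col1a1. Without MG16 or MG17 it was 0.0743 or 0.114 for Kdr and 0.0889 or 0.0809 for Col1a1.

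Several of these counts turned on 1 library or on the processing. The endothelial list had 0 higher with no filter, quantile normalization, the length correction, no trend or sex as a covariate. Under quantile normalization the meningeal list had 0 higher and the ventral list 3. Without MG18 the ventral list had 2 markers higher, the astrocyte and oligodendrocyte list 1, and the microglial list 0 higher and 1, Aif1, lower, while the erythroid list had 0 in either direction and the dorsal cortex list 0. Without MG15 the ventral list had 2 higher, without MG16 or MG17 it had 3, and without MG19 it had 4. The astrocyte and oligodendrocyte list had 2 higher without MG16, and the microglial list 1 without MG16 or MG19 and 5 without MG17. The meningeal list had 0 higher without MG17 and 1 without MG15 or MG16, the endothelial list 0 without MG17 or MG19, and the progenitor list 3 lower without MG18 or MG19. The neuronal list had 1 lower without MG15, MG16, MG18 or MG19, with 1 higher without MG19, and the erythroid list 1 lower without MG17 or MG19.

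The sums were taken again without the marker of highest mean in each list, a step chosen after seeing the data. Without Neurod6 the dorsal cortex sum was 261.5 and 347.9 FPKM in cKO, against 337.3, 378.8 and 267.6 FPKM in control, and the groups overlapped. In that list Tbr1, at 0.32 with both cKO libraries above all controls, and Bcl11b, at 0.31, lay on the other side of 0 from Emx1. The progenitor sums without Fabp7, the erythroid sums without Hbb-bs and the meningeal sums without Dcn overlapped as well. The ventral sums without Sst, the astrocyte and oligodendrocyte sums without Aldh1l1 and the microglial sums without C1qb stayed above all controls in cKO, and the neuronal sums without Tubb3 lay below all controls in cKO. No marker was at 0 in every library, and the part of these cells in the values of the 8 genes was not tested.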

How the data were processed

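RNA from whole cortices at embryonic day 16 was depleted of ribosomal RNA and sequenced as paired, strand-specific reads. The authors mapped the reads to mm10 with TopHat2, used samtools with the aim of keeping properly paired, uniquely mapped, non-duplicate reads, and deposited FPKM values per gene and library from Cuffdiff and cummeRbund. The tool versions, and the scaling of libraries within Cuffdiff, were not given in the sources used here. Removing duplicates lowers the values of the most abundant genes, and reads in near-identical copies are lost or split. Columns were matched to samples by the library name in the sample titles, and groups were taken from the labelled genotype.

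The deposited FPKM were put on a log2 scale after adding 0.1, and cKO minus control was estimated by limma 3.58.1 (lmFit, eBayes with a trend) in R 4.3.3 without a covariate. Two-sided p-values were adjusted after Benjamini and Hochberg over 14693 genes, those whose FPKM averaged 0.1 or more. The pseudocount shrinks differences of low genes. Small RNAs (1241 names, 62 of them at such a mean) were not tested. The fit was tested on simulated data. Single values were compared by an exact permutation test over the libraries, whose smallest p is 0.1. Python 3.11.15, numpy 2.4.6, pandas 2.3.3, scipy 1.17.1 and matplotlib 3.10.9 were used. Positions are from GENCODE on GRCm38, and promoters from RefSeq on GRCm38.p6.

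The genes, lists and tests were chosen with earlier results of these data known. Genes named are the 8 members, Uhrf1, from each partner or target list up to 4 genes with an unadjusted p under 0.05 (where fewer than 2 passed, also the 2 highest in mean FPKM), from each marker list the gene of smallest p, genes that overlap a member, and the 3 genes most like Zbtb38. Among these, 2 genes are not reported here by name or value. Alternatives were the pseudocount, the filter, quantile normalization, rescaling each library to the same sum without small RNAs, a loess correction (span 0.3) for transcript length, no trend, sex as a covariate, and leaving out each library. Sex with the length correction was added after seeing the data. A transcript length was found for 95.2% of the genes tested. Depth could only be estimated, by finding the number of fragments at which low values of genes with 1 transcript fell nearest to whole fragments (65.2% to 81.5% of such values within 0.25 of one), so counting intervals are not given.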

Additional observations from a re-analysis of the deposited data

How the results depend on the processing

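Over 15 alternatives the Zbtb38 difference lay between 0.34 and 0.61 with an unadjusted p between 0.00559 and 0.0848 (under 0.05 in 13) and an adjusted p between 0.194 and 0.549. The signs of Mbd2, Mbd3, Mbd5, Mbd6 and Zbtb33 held under all alternatives that could be fitted (for Mbd6 14, since its mean was under 1 FPKM). No member passed an adjusted p under 0.05 under any alternative. Members higher at an unadjusted p under 0.05 numbered 0 to 1 with a library left out (0 without MG19), and 0 with sex and length together, an alternative chosen after seeing the data. The median of the members was 0.137 to 0.23 with a library left out, 0.365 on rescaling without small RNAs and 0.115 with sex and length together. Rescaling moved the median of all genes to 0.12, and relative to that Zbtb38 was 0.49, Zbtb33 -0.16 and the members' median 0.24, while Chd3 was -0.08, Setdb1 -0.07, Ctbp1 -0.01, Orc4 -0.10 and Cbx5 0.01. Counts over all genes past an unadjusted p under 0.05 and 2-fold, 421 higher and 172 lower, were 152 and 25 with a pseudocount of 1 and 171 and 65 at a mean of at least 1 FPKM, with 281 lower under quantile normalization and 156 to 310 lower with a library left out, most without MG18. Those past an adjusted p under 0.05, 159 higher and 24 lower, were 98 and 14 at a mean of at least 1 FPKM, and 41 to 128 and 2 to 20 with a library left out, fewest without MG18. Signs turned under quantile normalization for Chd3 (0.0236), Cbx5 (0.133) and Ctbp1 (0.10), on rescaling, before that shift is taken off, for Chd3 (0.0475), Cbx5 (0.137), Setdb1 (0.0522), Ctbp1 (0.112) and Orc4 (0.0257), with the length correction for Mbd1 (-0.00396) and Zbtb4 (-0.0211), and with sex and length together for Mbd1 (-0.0274). With a library left out, ranges that crossed 0 were -0.388 to 0.0563 for Chd3, -0.0430 to 0.0143 for Cbx5, -0.0720 to 0.138 for Mbd1, -0.220 to 0.448 for Zbtb4, -0.224 to 0.0356 for Setdb1, -0.332 to 0.0899 for Orc4, -0.0895 to 0.0183 for Ctbp1 and -1.18 to 0.0211 for Tmem255a. The cause of these moves was not tested. Mbd6 had the fewest fragments, about 31 to 88 a library. No paired analysis was possible because the labels number no replicates, and the numbers given to libraries here only name them.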
